A study of Mus musculus with 8 samples.

Results

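Binding of phospho-CREB1 was followed at 10 genes of the metallothionein and glucocorticoid response, Mt1, Mt2, Nr3c1, Fkbp5, Tsc22d3, Klf15, Ddit4, Sgk1, Cebpb and Cebpd, out of 21887 protein-coding genes. The genes were chosen from earlier results of the same peak lists, among them the peak beside Mt2 that was listed in both C26 libraries and in neither CTRL library. The presence and strength of their peaks are therefore given as a description, with no test. For every gene, each peak was taken whose summit lay inside the gene span or within 10000 bp of it. The last peak taken by that limit lay 9728 bp beyond Mt2, with 7.19-fold enrichment, and the nearest one left out lay 12868 bp from Mt1, with 5.26-fold enrichment, both in CTRL replicate 2.

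The libraries came from skeletal muscle of Balb/c mice, labelled gastrocnemius although the extraction protocol says quadriceps. C26 mice were males that carried a subcutaneous tumor grown from injected C26 cells, a murine adenocarcinoma line, since 2 months of age. CTRL mice were controls, named apart from tumor-bearing mice, and their sex and age are not stated. The protocol also describes rolipram, an inhibitor of cAMP breakdown, at 3 mg/kg, or its vehicle, for C26 mice, and the libraries are not labelled by this treatment. The sample titles name phospho-CREB1, whereas the protocol names antibodies to CREB or phospho-CREB1. Each group had 2 phospho-CREB1 libraries with an input library for each, and nothing says that they came from separate animals. The authors listed peaks for each library against its input. The 2 C26 lists held 7482 and 4051 peaks (replicates 1 and 2), and the 2 CTRL lists held 10835 and 14975. Read depth is unknown, so a gene without a peak is one where no peak passed the authors' threshold. In whole muscle, fewer bound cells and less binding per cell cannot be told apart. The length of a list moves with its group, and its part in the results was not tested.

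CREB1 is a transcription factor that is phosphorylated after a rise in cAMP and binds the cAMP response element, whose full form reads TGACGTCA and whose short form reads TGACG. Glucocorticoids act in a different way, through the glucocorticoid receptor, a nuclear receptor that binds a palindromic response element when it has bound hormone. In muscle, glucocorticoids raise genes that restrain growth signaling and protein synthesis, and they contribute to wasting. Metallothioneins are small cysteine-rich proteins that bind zinc and copper. Their genes respond to zinc through metal response elements, and also to glucocorticoids and inflammation.

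The promoters on which the results turn are printed 5′ to 3′ from the RefSeq table (GRCm38.p6), which gave 15 start sites for 8 of the 10 genes. Each runs from 250 bases before the listed start to 50 bases from it. Capitals mark the short cAMP response element (TGACG, or CGTCA on the other strand), the metal response element core (TGCACNC or TGCGCNC, on either strand) and the glucocorticoid response element palindrome. Mt1 and Cebpb are shown because all 4 libraries had a summit in their window, Mt2 because no library did, Ddit4 because its peaks were in CTRL lists alone, and Sgk1 for its palindrome.
Mt1 (chr8:94178839-94179138, plus strand): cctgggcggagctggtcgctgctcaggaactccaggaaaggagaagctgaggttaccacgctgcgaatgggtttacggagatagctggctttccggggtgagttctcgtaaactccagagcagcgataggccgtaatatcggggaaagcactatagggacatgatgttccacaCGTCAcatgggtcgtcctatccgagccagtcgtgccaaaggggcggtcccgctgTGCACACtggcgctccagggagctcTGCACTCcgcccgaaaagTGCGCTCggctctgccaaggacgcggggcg
Mt2 (chr8:94172368-94172667, plus strand): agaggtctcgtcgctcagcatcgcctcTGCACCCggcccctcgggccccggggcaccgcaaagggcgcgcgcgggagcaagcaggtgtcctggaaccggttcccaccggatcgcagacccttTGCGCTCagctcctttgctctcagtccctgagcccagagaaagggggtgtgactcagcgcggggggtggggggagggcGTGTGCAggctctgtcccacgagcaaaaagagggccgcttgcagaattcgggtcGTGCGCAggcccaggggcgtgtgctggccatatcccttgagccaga
Cebpb (chr2:167688665-167688964, plus strand): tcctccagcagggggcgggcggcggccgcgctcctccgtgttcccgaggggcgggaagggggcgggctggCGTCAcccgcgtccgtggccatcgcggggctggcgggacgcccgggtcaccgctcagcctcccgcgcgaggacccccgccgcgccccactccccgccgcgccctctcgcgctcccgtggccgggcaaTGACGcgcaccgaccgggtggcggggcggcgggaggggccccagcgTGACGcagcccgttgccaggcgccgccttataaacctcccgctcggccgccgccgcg
Ddit4 (chr10:59951721-59952020, minus strand): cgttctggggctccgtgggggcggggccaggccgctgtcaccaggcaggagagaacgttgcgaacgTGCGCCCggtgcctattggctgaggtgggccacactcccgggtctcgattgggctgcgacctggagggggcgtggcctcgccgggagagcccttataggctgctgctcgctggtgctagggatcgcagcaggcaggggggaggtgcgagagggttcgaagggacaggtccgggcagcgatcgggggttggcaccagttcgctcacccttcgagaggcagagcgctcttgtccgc
Sgk1 (chr10:21993640-21993939, plus strand): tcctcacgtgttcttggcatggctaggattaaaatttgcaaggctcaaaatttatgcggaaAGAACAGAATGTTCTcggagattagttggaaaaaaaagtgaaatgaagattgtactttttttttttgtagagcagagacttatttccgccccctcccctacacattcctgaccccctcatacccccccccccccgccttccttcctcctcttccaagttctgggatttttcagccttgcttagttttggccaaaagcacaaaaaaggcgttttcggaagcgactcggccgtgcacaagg

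The full cAMP response element was in none of the 15 member windows, compared with 1.79% of the 32851 windows of 300 bases in the table, in which a gene can have several. The short form was present once in the Mt1 window, at 77 to 73 bases before the start, in 2 places in the Klf15 window, in 3 places in the Cebpb window and once in a distal window of Tsc22d3 and of Sgk1. It was absent from the Mt2, Ddit4 and Fkbp5 windows and from that of Sgk1 shown above, and was present in 20.8% of all windows. The metal response element core occurred 3 times in the Mt1 window, 4 times in the Mt2 window and once in a window of Klf15, Ddit4 and Sgk1, and in 25.7% of all windows. The glucocorticoid response element palindrome, formed by AGAACA and its reverse complement 3 bases apart, was in the printed Sgk1 window, ending 175 bases before the start. Of the 32851 windows, 3 (0.00913%) held it, and AGAACA on either strand, which the palindrome contains, was in 19.0%. The C/EBP site TTGCGCAA was in no member window and in 0.183% of all windows. All motifs were searched on both strands, and the full cAMP response element contains the short form. A match describes letters and is not a bound site.

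Across the 10 genes, peaks were frequent and the 2 groups overlapped. A peak within 10000 bp was listed for 9 and 8 genes in C26 replicates 1 and 2, and for all 10 in both CTRL replicates. Of all protein-coding genes, 37.8% and 22.8% had one in C26 replicates 1 and 2, and 47.3% and 53.8% in CTRL replicates 1 and 2. In all 4 libraries, 8 of the 10 genes had a peak, against 20.8% of all protein-coding genes. For Fkbp5, Sgk1 and Cebpd, no site was shared by all 4 libraries. None of the 10 had peaks in both C26 and neither CTRL library (0.0366% of all genes), and Ddit4 alone had them in both CTRL and neither C26 library (8.72% of all genes). The members were chosen with these lists in view, so nothing is read from the difference between them and all genes.

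Within 1000 bp of a gene end, Mt1, Cebpb and Cebpd had a peak in every library (12.7% of all genes), Mt2 in the C26 libraries alone (0.0274%), and Ddit4 in the CTRL libraries alone (7.4%). Fkbp5 had a gene-end peak in C26 replicate 1 and both CTRL replicates (11.3% of all genes). Nr3c1, Tsc22d3, Klf15 and Sgk1, all genes with long spans, had their peaks farther inside the span. Some of these lay near a listed start that is not at the end of the span. The nearest summits were 60 bp from a start at Klf15, 66 bp at Sgk1 and 550 bp at Tsc22d3, all in CTRL replicate 1. Nr3c1 had no listed start, so its distance to one is unknown.

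The 63 peaks fell into 25 regions when overlapping peaks were merged. Of these, 5 had a peak in all 4 libraries (16.9% of the 17607 regions of the series did), 1 in both C26 libraries and no CTRL one (0.375%) and 4 in both CTRL libraries and no C26 one (15.7%). The 5 shared regions lay at the Mt1 start, upstream of Mt2, at the Cebpb start, inside Klf15 and inside Tsc22d3. A further 5 had peaks in both CTRL libraries and C26 replicate 1, a pattern whose share over all regions was not counted, so nothing is read from it. The shares in all 4 and in both CTRL libraries alone are near those of all regions, and the region of both C26 libraries is the one at Mt2, known when the genes were chosen. Within each list the member peaks were of middling strength: their median percentile by −log10 q was 54.4 and 49.9 in C26 replicates 1 and 2, and 48.3 and 49.0 in CTRL replicates 1 and 2, where a higher percentile is a stronger peak. Fold enrichments ran from 3.49 to 10.1 and from 3.90 to 18.4 in C26 replicates 1 and 2, and from 3.21 to 9.47 and from 3.43 to 24.2 in CTRL replicates 1 and 2. Enrichment is the authors' value at the summit over input, scaled within each library, so it orders peaks inside a list and is not compared between lists.

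**Figure D1:**
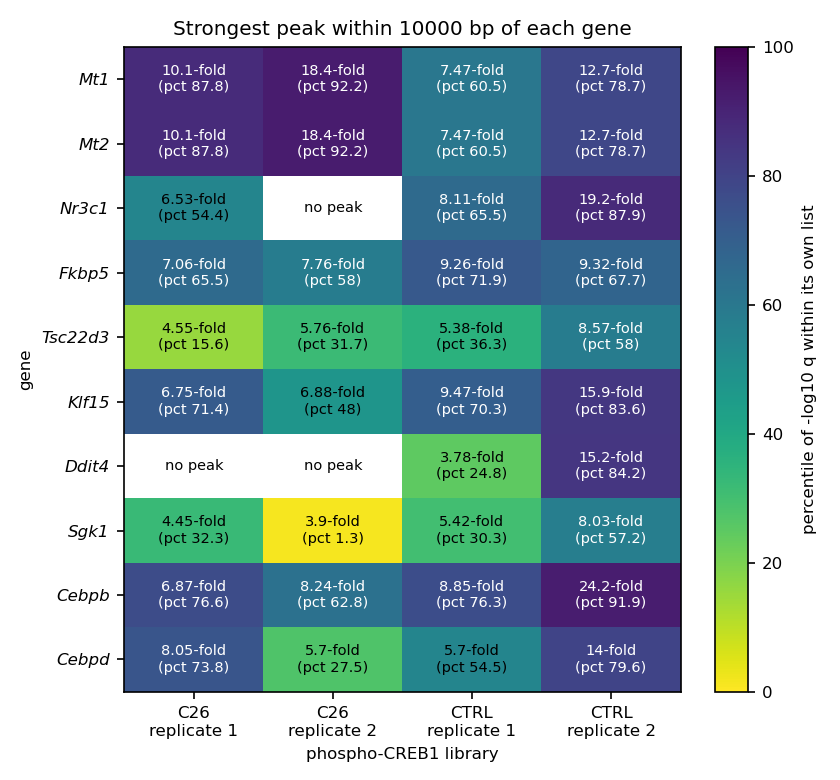
Strongest peak within 10000 bp of each of the 10 genes (rows) in the 4 phospho-CREB1 libraries (columns), coloured by its percentile of −log10 q within its own list, with the fold enrichment over input printed. Mt1 and Mt2 share their strongest peak, which held percentiles 87.8 and 92.2 in the C26 lists and 60.5 and 78.7 in the CTRL lists, and white cells (Nr3c1 in C26 replicate 2, Ddit4 in both C26 replicates) had no peak.

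The metallothionein genes are neighbors on chromosome 8, Mt2 at 94172618 to 94173567 and Mt1 at 94178883 to 94180327. The region at the Mt1 start carried a peak in every library, with 10.1- and 18.4-fold enrichment in C26 replicates 1 and 2 and 7.47- and 12.7-fold in CTRL replicates 1 and 2. Its summits lay 21 and 84 bp upstream of the listed start in C26 replicates 1 and 2, 82 bp upstream in CTRL replicate 1 and 18 bp downstream in CTRL replicate 2. All 4 peaks covered the single short cAMP response element of the printed sequence and its 3 metal response element cores. The summits of C26 replicate 2 and CTRL replicate 1 lay 9 and 7 bp from the middle of the short cAMP response element, those of C26 replicate 1 and CTRL replicate 2 at 54 and 93 bp. From the middle of the nearest metal response element core, the summits lay 1 and 64 bp away in C26 replicates 1 and 2. In CTRL replicates 1 and 2 that distance was 62 and 5 bp. C26 replicate 2 had a second peak at the far end of Mt1, 88 bp inside the span, with 5.79-fold enrichment, and the peak of C26 replicate 1 was long enough (1503 bp) to reach the same place.

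Upstream of Mt2 every library also had a peak, with 4.74- and 17.4-fold enrichment in C26 replicates 1 and 2 and 4.68- and 6.50-fold in CTRL replicates 1 and 2. The summits lay 1140 and 1093 bp before the Mt2 start in C26 replicates 1 and 2, and 1195 and 1020 bp before it in CTRL replicates 1 and 2, so all 4 were just outside the 1000 bp gene-end limit. In C26 replicate 2 this peak was 1468 bp long, ranked at percentile 91.5 and ran across the Mt2 start, covering 262 of the 300 bases printed for Mt2 and its 4 metal response element cores. The peaks of the other 3 libraries were 346 to 628 bp long and stopped short of the window.

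Beyond the far end of Mt2 lay the peak on which the C26-only status of the gene rested. It had 4.03-fold enrichment in C26 replicate 1, with its summit 309 bp past the end, and 7.16-fold in C26 replicate 2, 719 bp past the end. The summits were 410 bp apart, and the peaks overlapped without either covering the other's summit. The peak of C26 replicate 1 was weak in its list (percentile 21.2, −log10 q 4.59), and that of C26 replicate 2 was in the middle (51.8, −log10 q 7.0). At a threshold of −log10 q of at least 5, or with merging only of peaks that overlapped over most of their length, the region no longer counted as C26-only. Nor did it with all lists cut to the 4051 peaks of the shortest, where C26 replicate 2 alone kept its peak. In the other direction, 2 sites beyond Mt1 were in CTRL replicate 2 alone, 2968 and 6515 bp past its end, with 7.19- and 7.08-fold enrichment.

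**Figure D2:**
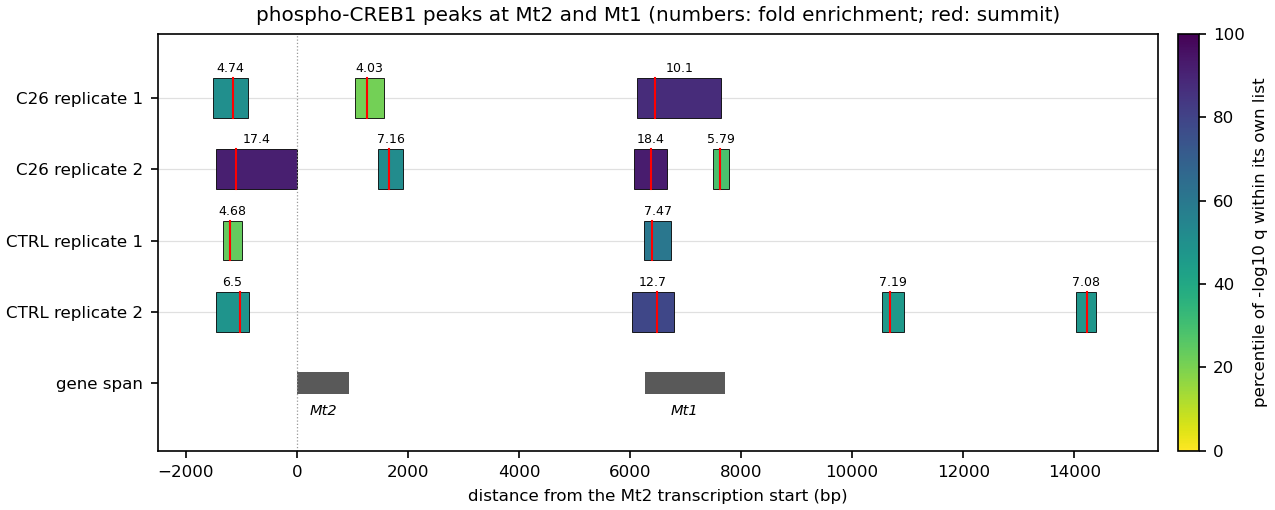
Peaks at Mt2 and Mt1 in each library, by distance in bp from the Mt2 transcription start, coloured by percentile within the library's own list, with summits in red and fold enrichment above. All 4 libraries had a peak upstream of Mt2 and one at the Mt1 start, and only the C26 rows have one just past the end of Mt2 (4.03- and 7.16-fold).

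The order of the members within a list put the metallothioneins first in both C26 libraries and lower in both CTRL libraries. By the percentile of the strongest peak, Mt1 and Mt2 shared first place among the 9 genes with a peak in C26 replicate 1 and among the 8 in C26 replicate 2. Both held it through the same peak at the Mt1 start, 5501 and 5438 bp past the end of Mt2 in C26 replicates 1 and 2. The peaks nearest to Mt2, upstream and past its end, held percentiles 50.6 and 21.2 in C26 replicate 1. In C26 replicate 2 they held 91.5 and 51.8. In the CTRL lists Cebpb came first of 10, at percentiles 76.3 and 91.9, and Mt1 came at place 5 in replicate 1 and place 6 in replicate 2. Cebpb was next after the metallothioneins in both C26 lists, at 76.6 and 62.8. When all lists were cut to their 4051 strongest peaks, the region upstream of Mt2 and a region inside Fkbp5 kept a peak in both C26 libraries and in neither CTRL library. The cut took more peaks from the CTRL lists than from the C26 lists. The share of all regions with this pattern after the cut was not counted, so nothing is read from it. These orders describe 4 lists and were not tested.

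Among protein-coding genes, 6 had the gene-end pattern of Mt2, Mt2 among them. Ranked by the lower of their C26 percentiles, the other 5 were Ate1 (73.7), Brd2 (51.2), Commd9 (46.5), Rin2 (21.5) and Zzz3 (11.5), compared over the 4 libraries.

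Nr3c1 encodes the glucocorticoid receptor (chromosome 18, 39410545 to 39519421). It had 1 region of binding, 79391 to 79397 bp above the lower end of the span, with its main summits within 6 bp of each other in the 3 libraries that had it. The enrichment was 6.53-fold in C26 replicate 1, 8.11-fold in CTRL replicate 1 and 19.2-fold in CTRL replicate 2, and C26 replicate 2 had no peak within 10000 bp of the gene. The peaks were broad, 1300 bp long in C26 replicate 1 and 1890 and 2872 bp in CTRL replicates 1 and 2, and CTRL replicate 1 had a smaller one of 5.09-fold beside it. C26 replicate 2 was the shortest list, and whether its missing peak follows from that was not tested.

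Fkbp5 encodes a co-chaperone that holds the glucocorticoid receptor in a state of low hormone affinity, and the receptor induces it in return (chromosome 17, 28398753 to 28486149, minus strand). At its start, C26 replicate 1 had 4.05-fold enrichment and C26 replicate 2 had no peak, and CTRL replicates 1 and 2 had 9.26- and 9.32-fold. The summits lay 106 bp upstream of the start in C26 replicate 1, 76 bp upstream in CTRL replicate 1 and 12 bp downstream in CTRL replicate 2. The distribution was otherwise for a site 65512 to 65818 bp inside the gene. There, C26 replicates 1 and 2 had 7.06- and 7.76-fold enrichment, CTRL replicate 1 had 5.81-fold and CTRL replicate 2, the longest list, had no peak.

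Tsc22d3 encodes the glucocorticoid-induced leucine zipper, a mediator of anti-inflammatory effects of the hormone (chromosome X, 140539528 to 140600522, minus strand). Of its 3 listed starts, the one farthest downstream had a peak nearby in all 4 libraries, and none of these peaks covered the start itself. The enrichment was 4.55- and 5.76-fold in C26 replicates 1 and 2 and 5.38- and 8.57-fold in CTRL replicates 1 and 2, at percentiles 15.6 and 31.7 in C26 replicates 1 and 2 and 36.3 and 58.0 in CTRL replicates 1 and 2. The summits clustered 563 and 571 bp upstream of that start in C26 replicates 1 and 2, and 550 and 636 bp upstream in CTRL replicates 1 and 2. CTRL replicate 2 had a further peak of 4.9-fold 1263 bp inside the most upstream start. At a threshold of −log10 q of at least 5 the peaks of both C26 libraries were lost, and Tsc22d3 counted as CTRL-only.

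Sgk1 encodes a kinase induced by glucocorticoids and serum that acts on growth and ion transport (chromosome 10, 21882184 to 21999903). It had 6 listed starts, and its strongest peak came last or next to last among the members in every list. C26 replicate 1 had 1 peak, of 4.45-fold, and C26 replicate 2 had 1 of 3.90-fold that was near the bottom of its list (percentile 1.3). CTRL replicates 1 and 2 had 3 peaks each, the strongest of 5.42- and 8.03-fold. The C26 replicate 2 peak lay in a region of its own, 599 bp upstream of the start at 21992223, so the presence of a peak in all 4 libraries did not rest on a shared site. The C26 replicate 1 summit lay 282 bp past the start at 21993890, and no C26 peak touched the glucocorticoid response element palindrome. In CTRL replicates 1 and 2, peaks covered 15 and 14 of its 15 bases, and the nearest summit, in CTRL replicate 2, lay 322 bp from its middle. The CTRL replicate 1 peak over it was also near the bottom of its list (3.21-fold, percentile 1.6, −log10 q 1.8). That of CTRL replicate 2 was its 8.03-fold peak (percentile 57.2).

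**Figure D3:**
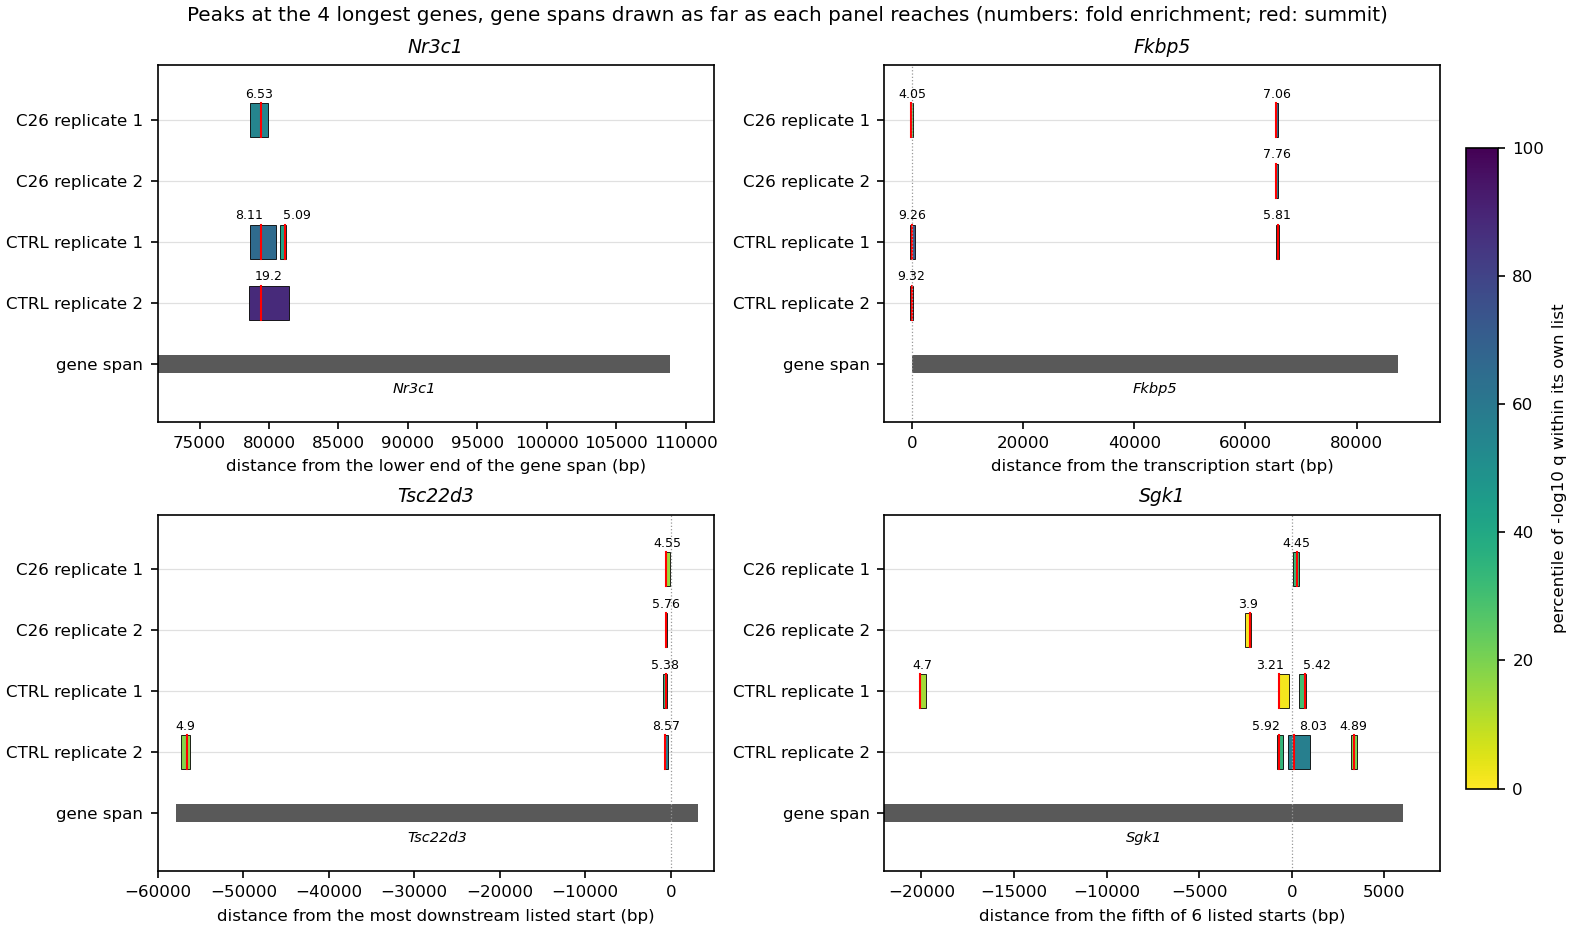
Peaks at Nr3c1, Fkbp5, Tsc22d3 and Sgk1 in each library, by distance in bp from the point named under each panel, coloured by percentile within the library's own list, with summits in red and fold enrichment above. The Nr3c1 site and the Fkbp5 start have no peak in C26 replicate 2, the internal Fkbp5 site has none in CTRL replicate 2, and the Tsc22d3 site is in all 4 rows.

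Klf15 encodes a transcription factor that the glucocorticoid receptor induces in muscle and that raises amino acid breakdown (chromosome 6, 90461043 to 90491803, plus strand). At its listed start, C26 replicate 1 had 6.75-fold enrichment and C26 replicate 2 had no peak, and CTRL replicates 1 and 2 had 9.47- and 12.2-fold. The summits lay 105 bp upstream of the start in C26 replicate 1 and 60 and 62 bp upstream in CTRL replicates 1 and 2. They lay 29 bp (C26 replicate 1) and 16 and 14 bp (CTRL replicates 1 and 2) from the middle of the upstream short cAMP response element. A site 1006 to 1150 bp past the start was in all 4 libraries, with 7.27- and 6.88-fold in C26 replicates 1 and 2 and 6.65- and 15.9-fold in CTRL replicates 1 and 2. Another site, 8802 and 8799 bp past the start, was in CTRL replicates 1 and 2 alone, with 7.0- and 4.93-fold, and its summits were 3 bp apart. Its CTRL replicate 2 peak was weak in its list (percentile 20.9, −log10 q 3.86). At −log10 q of at least 5, CTRL replicate 1 alone kept the site. The last, at 11512 bp, was in CTRL replicate 2 only (4.36-fold).

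Ddit4 encodes REDD1, an inhibitor of mTORC1 (chromosome 10, 59949675 to 59951770, minus strand). Neither C26 library had a peak within 10000 bp of it. CTRL replicates 1 and 2 had 3.78- and 15.2-fold enrichment, 186 and 264 bp upstream of the start, at percentiles 24.8 and 84.2 of their lists. They covered the start and 281 and 300 bases of the printed window, with its metal response element core. Farther off, in a region 18127 to 18153 bp away whose nearest gene was Anapc16, C26 replicates 1 and 2 had 6.25- and 7.48-fold enrichment and CTRL replicates 1 and 2 had 9.57- and 9.21-fold. With a window of 50000 bp Ddit4 therefore lost its CTRL-only status, and with lists cut to the shortest CTRL replicate 2 alone kept the peak at its start.

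Cebpb and Cebpd encode C/EBP transcription factors that glucocorticoids and inflammatory signals induce. The Cebpb start (chromosome 2, 167688915) carried a peak in every library, with 6.87- and 8.24-fold enrichment in C26 replicates 1 and 2 and 8.85- and 24.2-fold in CTRL replicates 1 and 2. The summits lay 22 bp upstream of the start in C26 replicate 1, 27 bp downstream in C26 replicate 2, and 64 and 39 bp upstream in CTRL replicates 1 and 2. All 4 peaks covered the 3 short cAMP response elements of the printed sequence. From the middle of the second of them, the summits lay 29 and 78 bp away in C26 replicates 1 and 2 and 13 and 12 bp away in CTRL replicates 1 and 2. From the middle of the third, they lay 17 and 32 bp away in C26 replicates 1 and 2 and 59 and 34 bp away in CTRL replicates 1 and 2. A site 7354 and 7210 bp past the start was in CTRL replicates 1 and 2 alone (7.44- and 7.03-fold), and one at 2403 bp was in CTRL replicate 2 (5.73-fold).

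At Cebpd (chromosome 16, 15887286 to 15889545) the gene-end peaks of the 4 libraries were not at 1 place. At the lower end, C26 replicate 1 had 8.05-fold enrichment, and CTRL replicates 1 and 2 had 5.70- and 14.0-fold, with summits 59, 13 and 74 bp outside the span. C26 replicate 2 had its peak at the opposite end, 152 bp beyond it (5.70-fold), where CTRL replicate 2 had 3.43-fold. That end and a CTRL-only site up to 1089 bp beyond it (3.48- and 4.86-fold in CTRL replicates 1 and 2) lay inside the span of the neighbor Spidr, a DNA repair gene. The CTRL replicate 1 peak of that site was weak in its list (percentile 3.9, −log10 q 2.42). At −log10 q of at least 5, CTRL replicate 2 alone kept the site. Counting only peaks whose nearest gene was a member, Cebpd had no peak in C26 replicate 2.

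**Figure D4:**
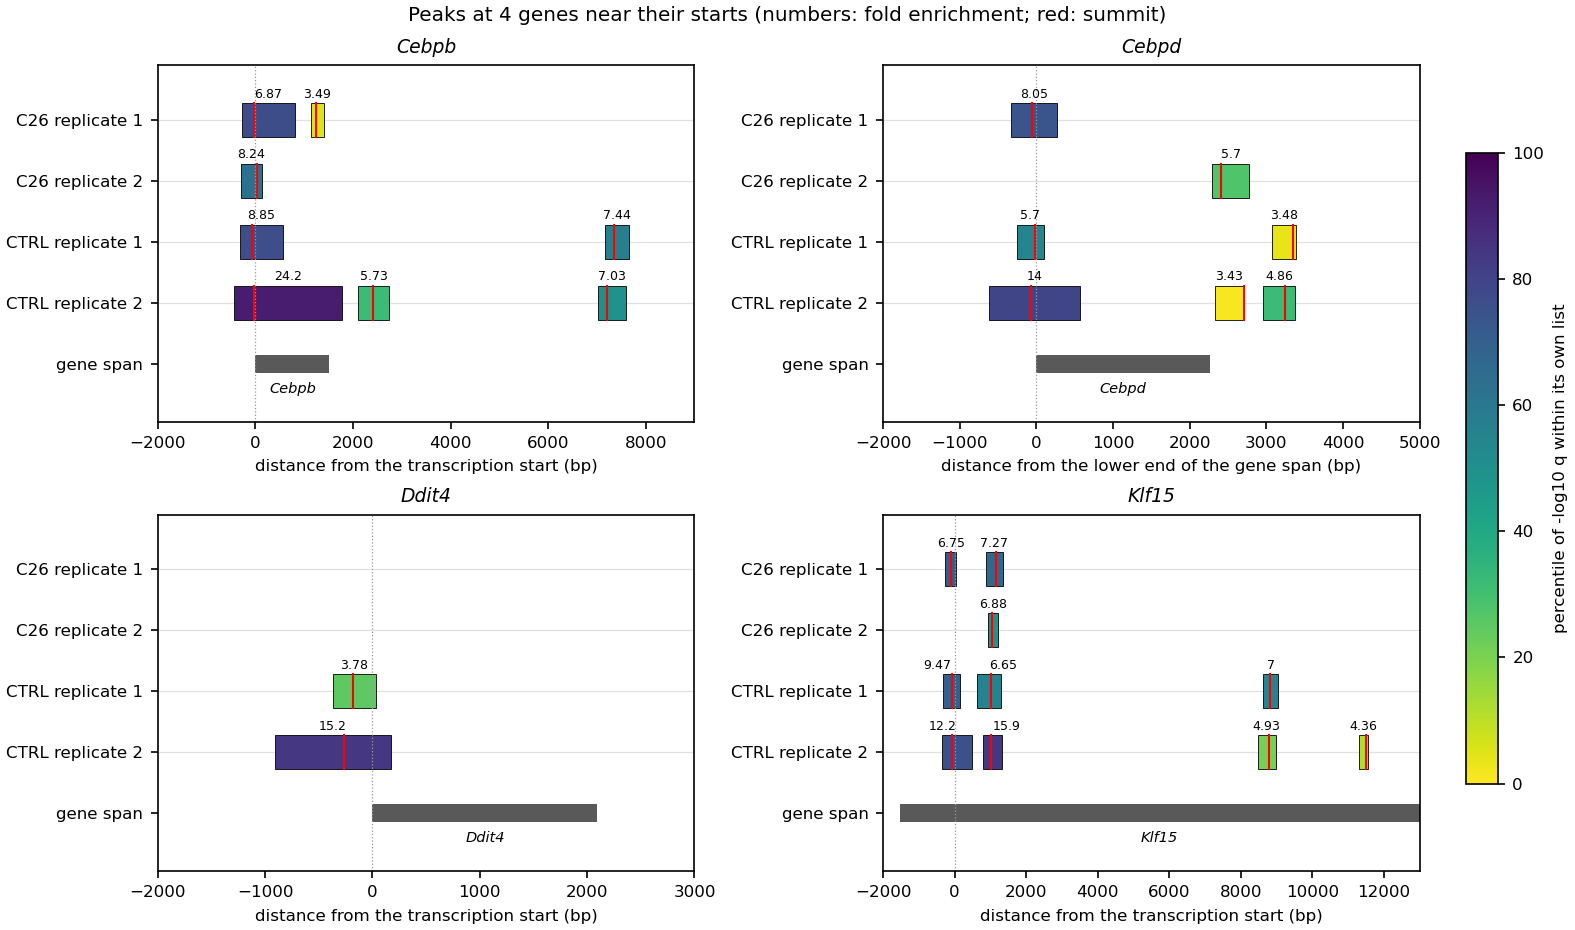
Peaks at Cebpb, Cebpd, Ddit4 and Klf15 in each library, by distance in bp from the point named under each panel, coloured by percentile within the library's own list, with summits in red and fold enrichment above. The Cebpb start has a peak in all 4 rows, Ddit4 has none in the C26 rows, and the C26 replicate 2 peak at Cebpd sits at the other end of the gene from the lower-end peaks of the other rows.

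Other genes of these pathways were read from lists that were drawn up with earlier results of these data known. Of all protein-coding genes, a gene-end peak was listed for 26.1% and 14.0% in C26 replicates 1 and 2 and for 33.9% and 40.1% in CTRL replicates 1 and 2, and the shares with one in every library (12.7%), in both C26 libraries and no CTRL one (0.0274%) and in both CTRL libraries and no C26 one (7.4%) are as given above. Of 26 further glucocorticoid-induced genes, 9 carried gene-end peaks in every library (12.7% of all genes did), and none had the pattern of both libraries of 1 group and no library of the other. By library, 19 and 10 had one in C26 replicates 1 and 2, and 17 and 20 in CTRL replicates 1 and 2. Ranked by the lowest of their percentiles over the 4 libraries, as in the lists that follow, the first were Per1, a clock gene, with 15.5- and 13.2-fold enrichment in C26 replicates 1 and 2 and 26.8- and 30.1-fold in CTRL replicates 1 and 2, and Pdk4, which inhibits pyruvate dehydrogenase, with 11.7- and 11.1-fold in C26 replicates 1 and 2 and 14.7- and 11.3-fold in CTRL replicates 1 and 2.

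Of 15 genes of the glucocorticoid receptor machinery, 4 carried gene-end peaks in every library (12.7% of all genes) and 4 in both CTRL libraries and no C26 one (7.4%). By the same ranking the first set was led by Crebbp, the CREB-binding coactivator (10.3- and 9.43-fold in C26 replicates 1 and 2, 29.1- and 43.1-fold in CTRL replicates 1 and 2), and Stip1, a co-chaperone (5.98- and 9.52-fold in C26, 7.96- and 25.1-fold in CTRL replicates 1 and 2). The second set included Fkbp4, a co-chaperone of the receptor (9.18- and 10.7-fold in CTRL replicates 1 and 2), and the coactivators Ep300 (9.14- and 15.9-fold) and Ncoa3 (4.17- and 7.55-fold).

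Of 16 metallothionein relatives and zinc genes, 4 carried gene-end peaks in every library (12.7% of all genes) and 2 in both CTRL libraries and no C26 one (7.4%). The zinc transporter genes Slc30a5 (9.75- and 8.55-fold in C26 replicates 1 and 2, 9.83- and 22.9-fold in CTRL replicates 1 and 2) and Slc39a9 (15.9- and 8.10-fold in C26, 16.3- and 17.8-fold in CTRL replicates 1 and 2) led the first set. Slc39a6 (5.81- and 5.62-fold in CTRL replicates 1 and 2) and Slc30a6 (6.14- and 5.44-fold) made up the second. Mtf1, the transcription factor that senses zinc and binds metal response elements, was picked out after its values were seen: its gene-end peaks had 9.32- and 5.87-fold enrichment in C26 replicates 1 and 2 and 16.3- and 18.6-fold in CTRL replicates 1 and 2.

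Of 14 relatives of the members, 3 carried gene-end peaks in every library (12.7% of all genes) and 4 in both CTRL libraries and no C26 one (7.4%). Tsc22d2 (13.8- and 12.9-fold in C26 replicates 1 and 2, 30.8- and 28.5-fold in CTRL replicates 1 and 2) and Cebpz (6.60- and 6.80-fold in C26, 9.20- and 12.9-fold in CTRL) led the first set. The second was Fkbp4, Fkbp1a (6.15- and 12.2-fold in CTRL replicates 1 and 2), Ddit4l (7.32- and 6.65-fold) and Cebpa (3.76- and 4.87-fold). No gene of the 4 lists had the opposite pattern, which 0.0274% of all genes had.

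Of 12 skeletal muscle markers, 9 had a gene-end peak in at least 1 library, and 57.7% of all genes had none in any library. By library, 5 and 2 of the markers had one in C26 replicates 1 and 2 (26.1% and 14.0% of all genes) and 8 and 9 in CTRL replicates 1 and 2 (33.9% and 40.1% of all genes). Des and Tnnt3 had one in every library, Ckm, Acta1 and Ttn in C26 replicate 1 and both CTRL replicates, Mb, Pygm and Myod1 in both CTRL replicates, Myh4 in CTRL replicate 2, and Myh1, Myh2 and Casq1 in none. Of 6 endothelial, 6 leukocyte and 6 fibroblast markers, 2, 0 and 2 had one, all in CTRL replicate 2. These counts do not check which tissue was used, since a peak at a gene is not a measure of its expression. The part of other cell types in the results was not tested.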

How the data were processed

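Phospho-CREB1 ChIP-seq and input libraries of muscle gave 4 peak lists. Per the labels and the submitters' processing notes, each library was set against 1 input, with q 0.05 as the limit, and the tools named are MACS2 2.1.4, Bowtie2 2.3.5.1, SAMtools 1.6, FastQC 0.11.2 and Picard, with build mm10 (GRCm38). A further filter named in the file names is not explained. The deposited lists give the summit's enrichment as a ratio (fold over input) and the −log10 q-value, as the authors' peak caller wrote them. Read depth is unknown.

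Peaks were assigned to the GRCm38.p6 gene spans of 21887 protein-coding genes on 21 chromosomes by summit (within 10000 bp of the span, or 1000 bp of an end), ranked by −log10 q within a list, and merged where they overlapped by at least 1 bp (Python 3.11.15, pandas 2.3.3). The assignment was tested on simulated data. The members and lists were chosen with earlier results of these data known. Named genes were the members, genes with peaks in 1 group alone (up to 5 a list and direction), the 2 of each list whose lowest percentile over the 4 libraries was highest, and genes sharing the gene-end pattern of Mt2. A gene that this rule names is not reported here. No test was run, since the members were chosen from these lists and each group had 2 libraries. Promoter sequences came from RefSeq. Alternatives changed the window, threshold, list length, peak point, gene assignment, overlap and libraries.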

Additional observations from a re-analysis of the deposited data

How the results depend on the processing

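In all, 73 values were recomputed for 7 counts, and 53 stayed within 1.5 times the reported count. Members with a peak in all 4 libraries numbered 5, not 8, with −log10 q of at least 5 and 2 with lists cut to the shortest. Members with a peak in CTRL lists alone numbered 2, not 1, at that threshold, 0 with cut lists and 0 with a window of 50000 bp. Members with a gene-end peak in all 4 libraries numbered 1, not 3, with cut lists. Regions in all 4 libraries numbered 10, not 5, with a window of 50000 bp, 1 with cut lists and 2 when peaks had to overlap over most of their length. Regions in C26 lists alone numbered 0, not 1, at the threshold and with that overlap, and 2 with cut lists, which were others (upstream of Mt2 and inside Fkbp5), while the reported one kept C26 replicate 2 alone. Regions in CTRL lists alone numbered 0, not 4, with cut lists. Cut lists and higher thresholds hold fewer peaks by construction. The shares of all genes and of all regions under these alternatives were not counted. Leaving out each library in turn gave 8 to 9 members in all remaining libraries, 1 to 2 members in CTRL lists alone (2, with Nr3c1 added, without C26 replicate 1), 0 members in C26 lists alone, 3 to 4 with gene-end peaks throughout, 5 to 10 regions in all (10 without C26 replicate 2), 1 to 3 regions in C26 lists alone (3 without C26 replicate 1, 2 without CTRL replicate 1) and 4 to 11 in CTRL lists alone (9 without C26 replicate 1, 11 and 8 without CTRL replicates 1 and 2). No paired analysis was possible because the results are counts of listed peaks that come from no test. Depth is unknown, so a missing peak sets no limit on binding.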

Other observations

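Start sites of the members with a summit in their printed-length window were rich in CG pairs. The 6 windows of 300 bases that held a summit of at least 1 library had 24 (Mt1), 32 (Fkbp5), 47 (Klf15), 26 (Ddit4), 28 (the last Sgk1 start) and 50 (Cebpb) CG pairs. The 9 windows with none had 24 (Mt2), 3 to 16 (the 3 starts of Tsc22d3) and 3 to 10 (the other 5 starts of Sgk1). The median over all 32851 windows was 7 CG pairs. The windows of Sgk1 and of Tsc22d3 belong to the same gene and are not independent, and no cause was tested.

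The neighborhood of Ddit4 held peaks of both groups that were nearest to other genes. A region nearest to Dnajb12, 28185 to 28317 bp away, had 6.08- and 13.8-fold enrichment in C26 replicates 1 and 2 and 7.78- and 4.53-fold in CTRL replicates 1 and 2.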
